A study of Mus musculus with 15 samples.

Results

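The transcriptional response of RAW 264.7 macrophages, an established mouse macrophage-like line, was compared between mesoporous silica nanoparticles (MSNPs) and nonporous silica nanoparticles (SNP100) of the same nominal diameter of 100 nm. The comparison used 6 libraries, 3 from MSNP-treated and 3 from SNP100-treated cells, chosen by their labelled treatment out of 15 libraries in 5 groups. MSNPs were given at 200 µg/mL and SNP100 at 50 µg/mL, doses labelled as nontoxic, and cells were collected after 6 h. The groups therefore differed in porosity and in mass dose, and each carried a library-name prefix of its own, so that porosity, dose and whatever the prefix stands for cannot be told apart. The other 9 libraries, from nontreated controls (0 µg/mL), from cells given nonporous SNP50 (25 µg/mL, nominal diameter 50 nm) and from cells given hollow mesoporous HMSNPs (200 µg/mL, nominal diameter 100 nm), are used below only to show levels side by side. All 5 groups were collected at 6 h from the same cell line. The labels do not say whether libraries of a group came from separate cultures. The p-values thus weigh differences against the spread between these libraries, and may not hold for new cultures.

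Macrophages take up silica particles by endocytosis and phagocytosis and carry them to lysosomes. Lysosomes are acidified by the vacuolar H+-ATPase (V-ATPase), degrade their content with cathepsins and other hydrolases, and carry on their surface the Rag GTPases, which report amino acid supply to mTORC1. The transcription factors TFEB, TFE3 and MITF raise the expression of lysosomal and autophagy genes through the E-box sequence CACGTG and its extended form TCACGTGA. ATF4, the effector of the integrated stress response, raises genes of amino acid supply together with CHOP (Ddit3) and Trib3, and the AP-1 and NF-κB factors drive early inflammatory genes.

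The counts on genes summed to between 31652167 and 38331517 per MSNP-treated library and between 35973920 and 37913019 per SNP100-treated library. Of the 9 macrophage markers, 9 were above 1 CPM (read counts scaled to a common library total after TMM normalization), and their summed level was 13400 to 14300 CPM with MSNPs and 16100 to 17000 CPM with SNP100, with 2 markers called higher and 6 lower. Markers of fibroblasts, epithelial cells and erythroid cells were too low to test, those of T cells summed to at most 0.391 CPM, those of neutrophils to at most 2.18 CPM and those of dendritic cells to at most 3.51 CPM. Mitochondrially encoded genes took 0.807% to 1.22% of the counts with MSNPs and 1.26% to 1.86% with SNP100, and ribosomal protein genes 3.45% to 3.58% and 4.26% to 4.43%. A lower level of a transcript per cell and fewer cells that carry it cannot be told apart in these bulk libraries.

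Of 17462 genes tested, 7142 (40.9%) were called different between the MSNP- and SNP100-treated groups by edgeR (quasi-likelihood test, adjusted p under 0.05), 3827 (21.9%) higher and 3315 (19%) lower with MSNPs. These percentages are the background against which the gene groups below are read. The groups hold mostly protein-coding genes, of which larger shares were called in both directions, as counted below. A group thus looks more shifted against all genes than against protein-coding ones. Most differences were small, with a median absolute log2 fold change of 0.37 among called genes. At least 2-fold differences were called for 1209 genes (6.92%), 613 higher (3.51%) and 596 lower (3.41%), and at least 4-fold differences for 386 genes, 210 higher and 176 lower. The 3 libraries of one group did not overlap those of the other for 8740 genes (50.1%), 25.9% of all genes with MSNPs higher and 24.1% with MSNPs lower. The direction differed between gene types, since 3624 of 12395 protein-coding genes were called higher and 2728 lower, whereas 102 of 2060 lncRNA genes were called higher and 389 lower. The median log2 fold change over all tested genes was -0.02. Where the spread was estimated from all 15 libraries, 3549 genes were called, and 1024 at least 2-fold, so that the small differences depended on that estimate more than the large ones. The balance of directions turned with an offset for transcript length, which gave 3575 genes called higher and 3606 lower.

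**Figure D1:**
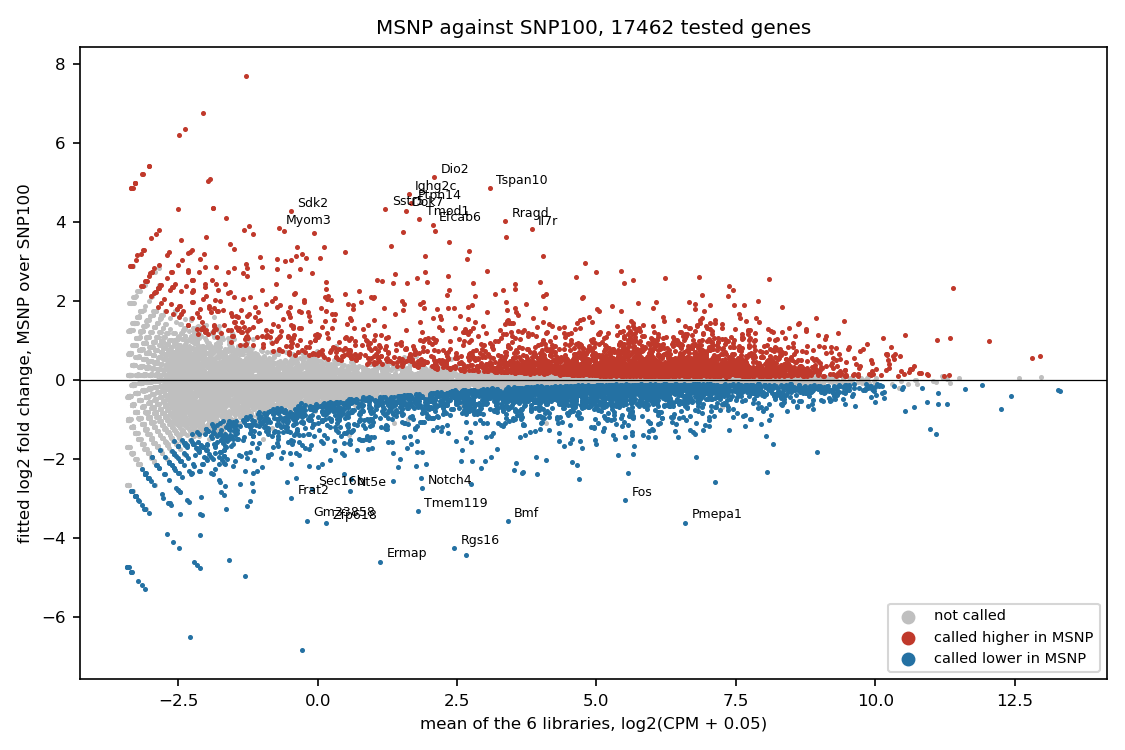
Fitted log2 fold change between MSNP- and SNP100-treated libraries (y axis) against mean log2(CPM + 0.05) of the 6 libraries (x axis), with 1 point for each of 17462 tested genes, red for the 3827 called higher and blue for the 3315 called lower with MSNPs. The named genes are the 12 largest increases and decreases. They were chosen among genes with a mean of at least 1 CPM in the higher group and groups that do not overlap. The fitted values at the far left come from genes with few counts.

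The 12 largest increases and the 12 largest decreases were taken among called genes of at least 1 CPM whose groups did not overlap. Non-overlap was thus a condition of the choice and not a result for these genes. The increases were led by Dio2, Tspan10, Ighg2c, Ptpn14, Sstr5 and Dok7, which were close to absent with SNP100. Dio2 (chr12:90691322-90705819, GRCm39), which encodes the deiodinase that activates thyroid hormone, stood at 7.89, 8.7 and 8.02 CPM in the MSNP-treated libraries and 0.282, 0.187 and 0.22 CPM in the SNP100-treated libraries. The log2 fold change was 5.13 ± 0.17 (SE, n = 3 against 3, adjusted p = 8.99e-12). Tspan10, a tetraspanin (chr11:120331930-120338174), stood at 16, 16.8 and 16.3 CPM in the MSNP-treated libraries and 0.616, 0.615 and 0.44 CPM in the SNP100-treated libraries, a log2 fold change of 4.86 ± 0.12 (SE, n = 3 against 3, adjusted p = 6.77e-13). The nontreated, SNP50- and HMSNP-treated libraries had means of at most 0.149 CPM for Dio2 and 0.496 CPM for Tspan10.

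Ptpn14, a protein tyrosine phosphatase, rose from a mean of 0.266 to 6.03 CPM (log2 fold change 4.48 ± 0.24, adjusted p = 1.98e-09). Sstr5, a somatostatin receptor, rose from 0.214 to 4.33 CPM, and Dok7, an adaptor of muscle receptor signaling, from 0.285 to 5.61 CPM. Tmod1, which caps the pointed ends of actin filaments, rose by 4.07 ± 0.20 on the log2 scale, Efcab6 by 3.93 ± 0.15 and Myom3, a sarcomere protein, by 3.84 ± 0.44. Ighg2c, an immunoglobulin constant gene with near-identical relatives, stood at 6.07, 6.17 and 5.47 CPM with MSNPs and 0.231, 0.348 and 0.0824 CPM with SNP100, and its reads may be shared with those relatives. Sdk2, an adhesion molecule, had at most 3 counts in any SNP100-treated library and stood at 1.66, 1.21 and 0.941 CPM with MSNPs and 0.0513, 0.0803 and 0.0549 CPM with SNP100, for which no fold is given.

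Il7r, Rragd and Tspan10 had the highest CPM of the 12 with MSNPs. Il7r, the receptor chain for interleukin 7 (chr15:9505874-9530262), stood at 26.9, 27.4 and 25.6 CPM in the MSNP-treated libraries and 1.95, 2.09 and 1.57 CPM in the SNP100-treated libraries, a log2 fold change of 3.83 ± 0.088 (SE, n = 3 against 3, adjusted p = 4.62e-13). Rragd, which encodes the RagD GTPase on the lysosomal surface (chr4:32982984-33025899), stood at 21.7, 19.9 and 16.3 CPM in the MSNP-treated libraries and 1.28, 1.44 and 0.797 CPM in the SNP100-treated libraries, a log2 fold change of 4.03 ± 0.15 (SE, n = 3 against 3, adjusted p = 4.88e-11). Mean levels in the nontreated, SNP50- and HMSNP-treated groups were 0.882, 1.39 and 1.45 CPM for Il7r and 0.331, 0.727 and 0.486 CPM for Rragd.

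**Figure D2:**
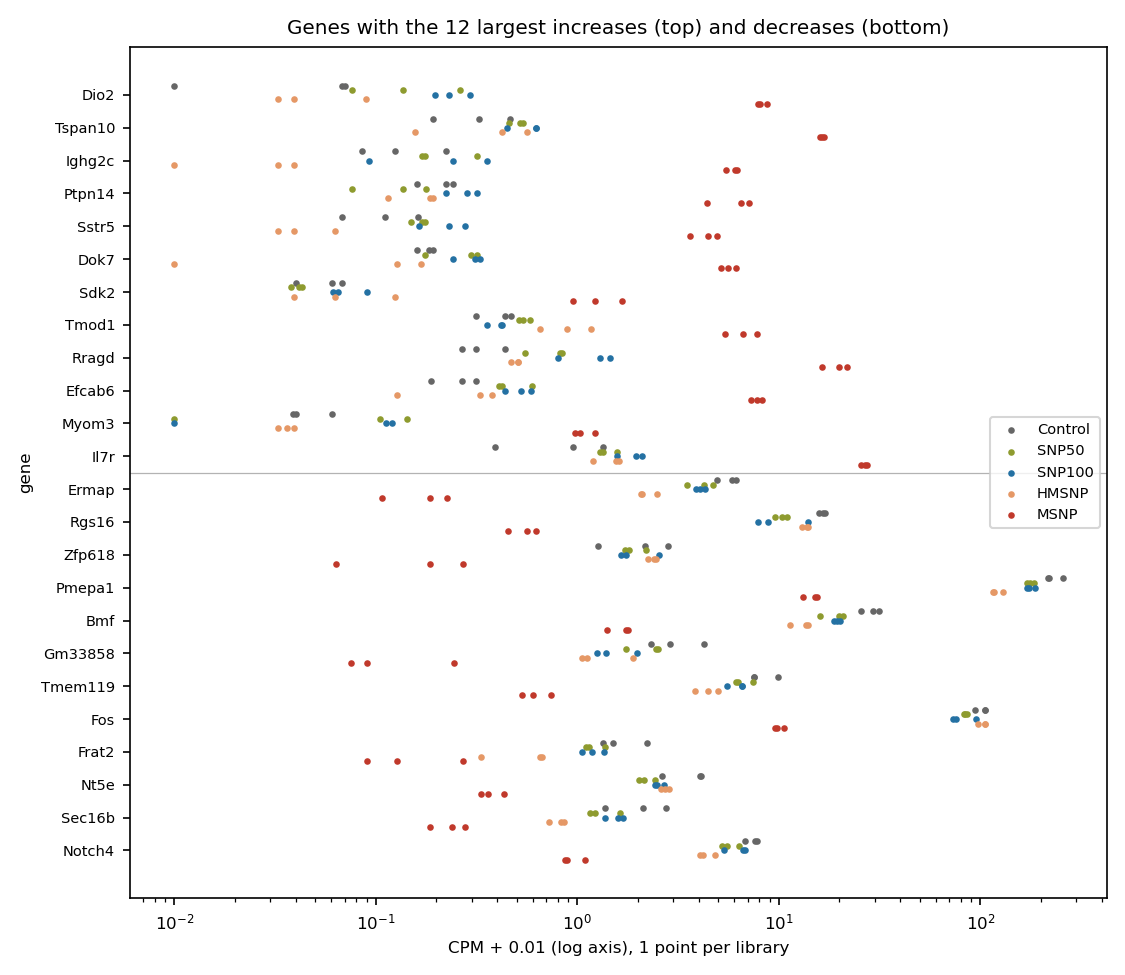
Level of the 12 genes with the largest increases (above the line) and the 12 with the largest decreases (below it) between MSNP and SNP100, as CPM + 0.01 on a log axis, with 1 point for each of the 15 libraries and a color for each group. Above the line the MSNP-treated libraries (red) lie to the right of those of the 4 other groups, and below it to the left. For the SNP100-treated libraries this follows from the choice of genes, which asked for groups that do not overlap.

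The 12 largest decreases included signaling regulators, transcription factors and surface proteins. Pmepa1, an inhibitor of TGF-β signaling (chr2:173066251-173118444), had the highest CPM of them and stood at 13.2, 15.1 and 15.4 CPM in the MSNP-treated libraries and 175, 171 and 186 CPM in the SNP100-treated libraries. The log2 fold change was -3.6 ± 0.057 (SE, n = 3 against 3, adjusted p = 2.14e-14). Rgs16, which shortens signaling through G proteins, stood at 0.555, 0.617 and 0.441 CPM in the MSNP-treated libraries and 8.85, 7.92 and 14 CPM in the SNP100-treated libraries, a log2 fold change of -4.24 ± 0.26 (SE, n = 3 against 3, adjusted p = 6.01e-09). Ermap, a butyrophilin-like membrane protein, stood at 0.0979, 0.215 and 0.176 CPM with MSNPs and 4.31, 3.88 and 4.07 CPM with SNP100, with a log2 fold change of -4.59 ± 0.22.

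Fos, a subunit of AP-1 (chr12:85520658-85524047), stood at 9.59, 9.74 and 10.6 CPM in the MSNP-treated libraries and 75.4, 73.1 and 95.5 CPM in the SNP100-treated libraries, a log2 fold change of -3.03 ± 0.096 (SE, n = 3 against 3, adjusted p = 7.8e-12). Bmf, a proapoptotic member of the BCL2 family, stood at 1.4, 1.77 and 1.73 CPM in the MSNP-treated libraries and 19.5, 20.2 and 18.7 CPM in the SNP100-treated libraries, a log2 fold change of -3.56 ± 0.094 (SE, n = 3 against 3, adjusted p = 1.6e-12). Mean levels of Fos in the nontreated, SNP50- and HMSNP-treated groups were 102, 84.4 and 103 CPM, and those of Bmf were 28.7, 18.9 and 13 CPM. The levels with MSNPs were thus the lowest among the 5 groups for both genes.

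Tmem119, a surface protein known as a microglial marker, fell by 3.32 on the log2 scale (0.616 against 6.21 CPM, the means with MSNPs and with SNP100, the order of all such pairs below), and Nt5e, the ectoenzyme CD73 that makes adenosine, fell by 2.79 (0.365 against 2.53 CPM). Zfp618 fell by 3.61, Frat2, a positive regulator of Wnt signaling, by 2.98, Sec16b by 2.76 and Notch4 by 2.74, with levels of at most 6.25 CPM with SNP100. The lncRNA gene Gm33858, which overlaps Cx3cr1 on the opposite strand, fell by 3.55 (0.127 against 1.53 CPM), and the strand setting of the counting is not known.

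Lysosomal genes differed mostly in one direction. Of the 17 V-ATPase subunit genes tested, 16 were called higher with MSNPs and the fitted value of the other one was above 0 as well, with a median log2 fold change of 0.50. Of all tested genes, 21.9% were called higher, and of the protein-coding ones 3624 of 12395. Atp6v0d2, the macrophage and osteoclast form of the membrane-sector d subunit, stood at 204, 191 and 190 CPM in the MSNP-treated libraries and 45.9, 41.1 and 43.5 CPM in the SNP100-treated libraries, a log2 fold change of 2.16 ± 0.047 (SE, n = 3 against 3, adjusted p = 2.83e-13). Atp6v1a, the catalytic A subunit, with the highest CPM of the 17, stood at 1570, 1543 and 1450 CPM in the MSNP-treated libraries and 764, 741 and 673 CPM in the SNP100-treated libraries, a log2 fold change of 1.07 ± 0.049 (SE, n = 3 against 3, adjusted p = 2.93e-10). Every MSNP-treated library was above every SNP100-treated library for both subunits, as was the case for 25.9% of all tested genes. Naming list members by small p favors such genes.

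Atp6v1c1 and Atp6v1d, subunits of the cytosolic sector, both rose by 1.31 on the log2 scale, to 614 and 145 CPM, and Atp6v0d1, the ubiquitous d subunit, rose by 1.17. Atp6ap2, an accessory subunit, had a log2 fold change of 0.03 ± 0.036 and was not called (adjusted p = 0.497). In the 15-library model 10 of the 17 were called, each of them higher, and the 6 that lost their call were Atp6v0a2, Atp6v0b, Atp6v0e, Atp6v1e1, Atp6v1f and Atp6v1g1. The level of Atp6v1a was 585 CPM in nontreated, 595 CPM in SNP50-treated and 636 CPM in HMSNP-treated cells.

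Of 40 lysosomal hydrolases and membrane proteins, 32 were called higher and 2 lower, with a median log2 fold change of 0.54. Cathepsin B (Ctsb, chr14:63358384-63383372) had the highest CPM of them and stood at 5785, 5608 and 5486 CPM in the MSNP-treated libraries and 2879, 2852 and 2727 CPM in the SNP100-treated libraries, a log2 fold change of 1.0 ± 0.037 (SE, n = 3 against 3, adjusted p = 3.44e-11). Its locus overlaps Fdft1 on the opposite strand, whose level was 64.2 against 58.6 CPM with MSNPs and SNP100. Cathepsin D (Ctsd) was at 2943 ± 77.2 CPM with MSNPs and 1453 ± 58 CPM with SNP100 (mean ± SD, n = 3) and prosaposin (Psap), the precursor of the saposins that present lipids to hydrolases, at 3519 ± 51.8 CPM with MSNPs and 1679 ± 24.3 CPM with SNP100. Their log2 fold changes were 1.02 ± 0.039 and 1.07 ± 0.034.

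Gla, α-galactosidase A, had the highest fold among the hydrolases and stood at 213, 204 and 195 CPM in the MSNP-treated libraries and 75.2, 77.5 and 70.9 CPM in the SNP100-treated libraries, a log2 fold change of 1.45 ± 0.045 (SE, n = 3 against 3, adjusted p = 6.03e-12). Gaa, which degrades glycogen in lysosomes, rose by 1.04 on the log2 scale, and Lamp1, an abundant lysosomal membrane protein, by 0.61 (1691 against 1107 CPM). Cathepsin H (Ctsh), an aminopeptidase, went the other way with 380, 343 and 343 CPM in the MSNP-treated libraries and 564, 575 and 614 CPM in the SNP100-treated libraries, a log2 fold change of -0.72 ± 0.047 (SE, n = 3 against 3, adjusted p = 1.55e-08). Ctsf fell by 0.19, whereas Scarb2 (0.07 ± 0.041) and Ppt1 (0.10 ± 0.038) were among the 6 that were not called.

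Of 17 lysosomal channels and transporters, 14 were called higher and 2 lower, with a median log2 fold change of 0.85, the highest of the lists examined. Ctns, the cystine exporter, stood at 61.6, 62.4 and 63.8 CPM in the MSNP-treated libraries and 26.6, 27.5 and 24.9 CPM in the SNP100-treated libraries, a log2 fold change of 1.25 ± 0.046 (SE, n = 3 against 3, adjusted p = 3.07e-11). Clcn7, the chloride-proton exchanger, stood at 181, 189 and 189 CPM in the MSNP-treated libraries and 81.5, 89.1 and 80.2 CPM in the SNP100-treated libraries, a log2 fold change of 1.16 ± 0.044 (SE, n = 3 against 3, adjusted p = 4.8e-11). Mcoln1, the calcium release channel TRPML1, stood at 86.3, 87.9 and 91 CPM in the MSNP-treated libraries and 46.6, 51.5 and 42 CPM in the SNP100-treated libraries, a log2 fold change of 0.92 ± 0.059 (SE, n = 3 against 3, adjusted p = 1.12e-08). The groups did not overlap for any of these 3, with MSNPs higher, as was the case for 25.9% of all tested genes.

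Slc15a3, a histidine and peptide transporter, rose by 1.3 and Mfsd12, which imports cysteine, by 1.04 on the log2 scale. Slc37a2 was lower with MSNPs (log2 fold change -0.37 ± 0.034, adjusted p = 6.52e-07), as was the channel Tpcn1 by a small margin (log2 fold change -0.13 ± 0.04, adjusted p = 0.0184), which lost its call without MSNP replicate 1 and without SNP100 replicate 1 or 3. The amino acid sensor Slc38a9 had 13.8 against 13 CPM and was not called.

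**Figure D3:**
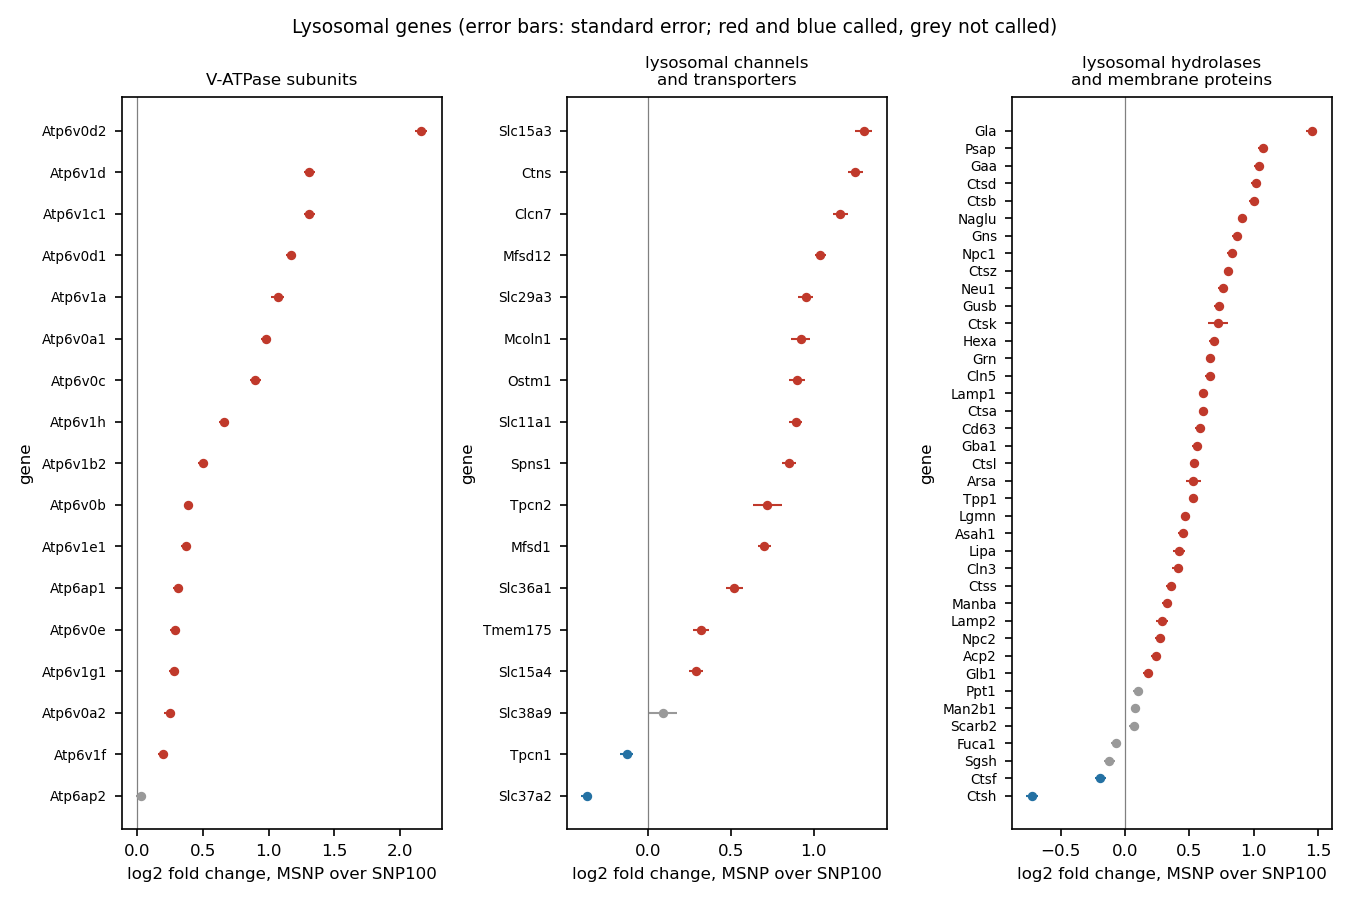
Fitted log2 fold change of MSNP over SNP100 (x axis) for the tested V-ATPase subunits, lysosomal channels and transporters, and lysosomal hydrolases and membrane proteins (y axis, without 1 of the last group that was not called), with bars for 1 SE from the fit on 3 against 3 libraries. Points to the right of 0 dominate each panel, with 16 of 17, 14 of 17 and 32 of 40 called higher (red), and Slc37a2, Tpcn1, Ctsh and Ctsf called lower (blue).

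The stretch upstream of the start of several of these genes held the extended E-box TCACGTGA, which was searched on both strands in windows from 250 bases before to 50 bases after the start (RefSeq sequences, GRCm38.p6). The stretches below are shown because they carry that sequence (in capitals) beside genes of these lists, 5′ to 3′ on the strand of the gene. Each was located by an exact match in GRCm39, which gives the coordinates.
Mcoln1 (chr8:3550443-3550510, plus strand): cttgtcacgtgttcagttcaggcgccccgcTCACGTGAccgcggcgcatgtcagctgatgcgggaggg
Mfsd1 (chr3:67490034-67490100, plus strand): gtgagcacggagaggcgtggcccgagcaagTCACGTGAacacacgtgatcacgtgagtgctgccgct
Ctsd (chr7:141941626-141941693, minus strand): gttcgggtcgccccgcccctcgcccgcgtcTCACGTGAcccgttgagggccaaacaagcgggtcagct
Gla (chrX:133501912-133501979, minus strand): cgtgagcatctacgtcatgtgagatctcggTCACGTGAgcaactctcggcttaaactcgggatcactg
Atp6v1a (chr16:43959717-43959784, minus strand): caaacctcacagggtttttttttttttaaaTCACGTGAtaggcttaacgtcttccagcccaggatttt

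Of 40 hydrolase and membrane protein genes, 32 had an entry in the promoter table, and TCACGTGA was present in 4 of these 32 (12.5%), against 304 of 27025 promoters in the whole table (1.12%). The shorter CACGTG, which TCACGTGA contains, was present in 13 of the 32 (40.6%), against 8.09% of all promoters, and GTCACGTG, which overlaps both, in 10 (31.2%), against 2.55%. Of the tested genes only 60.1% had an entry, and among these 10484 genes the shares were higher than in the whole table, at 2.13% for TCACGTGA, 11.5% for CACGTG and 4.65% for GTCACGTG. Among the channels and transporters, 15 of 17 had an entry and 4 of these held each of the 3 sequences (26.7%). TCACGTGA was present in 0 of the 28 promoters found for the 29 Rag, folliculin, Ragulator and MiT/TFE genes described below, and in 1 of 24 (4.17%) found for 29 autophagy genes, with CACGTG in 6 (21.4%) and 4 (16.7%). In Mfsd1, a lysosomal dipeptide exporter whose level was 326 against 200 CPM, the printed stretch holds another copy in lower case. Lists other than the lysosomal ones varied too. TCACGTGA was present in 2 of 14 promoters of the endocytosis and caveolae list (14.3%), whose genes were called in both directions. It was present in 0 of 16 promoters of NRF2 targets. Of the V-ATPase genes only 11 of 17 had an entry, so that no share is given for them. A match describes letters in the window, and binding was not measured.

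The genes that signal from the lysosomal surface were less uniform. Of 29 genes of the Rag, folliculin, Ragulator, sestrin, TSC and MiT/TFE group, 14 were called higher and 7 lower (10 and 2 in the 15-library model), with a median log2 fold change of 0.18. Rragc, the close paralog of Rragd, stood at 415, 397 and 396 CPM in the MSNP-treated libraries and 176, 175 and 165 CPM in the SNP100-treated libraries, a log2 fold change of 1.23 ± 0.039 (SE, n = 3 against 3, adjusted p = 7.56e-12). Fnip2, which with folliculin activates RagC and RagD, stood at 1035, 1082 and 961 CPM in the MSNP-treated libraries and 362, 385 and 340 CPM in the SNP100-treated libraries, a log2 fold change of 1.5 ± 0.052 (SE, n = 3 against 3, adjusted p = 1.71e-11). Flcn itself rose by 0.86 and Fnip1 by 0.88 on the log2 scale.

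Of the MiT/TFE factors, Mitf, Tfe3 and Tfeb were lower and Tfec was higher. Mitf stood at 39.4, 36.4 and 37.9 CPM in the MSNP-treated libraries and 90.5, 90.5 and 88.3 CPM in the SNP100-treated libraries, a log2 fold change of -1.24 ± 0.041 (SE, n = 3 against 3, adjusted p = 1.08e-11). Tfe3 was slightly lower (115 against 135 CPM, log2 fold change -0.24 ± 0.038, adjusted p = 0.000162), as was Tfeb (18.2 against 20.7 CPM, -0.18 ± 0.052), which lost its call without SNP100 replicate 1 and in the 15-library model. The fourth member, Tfec, was higher at 3.64 against 1.86 CPM (log2 fold change 0.97 ± 0.15). Mtor, which the study names, was at 75.4 against 85.6 CPM (log2 fold change -0.18 ± 0.054, adjusted p = 0.0138) and was not called in the 15-library model. Transcript levels of these factors say nothing of their location or activity.

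Of 29 autophagy genes, 18 were called higher and 4 lower (13 and 2 in the 15-library model), with a median log2 fold change of 0.21. Tecpr1, which tethers autophagosomes to lysosomes and directs LC3 to damaged lysosomes, stood at 191, 202 and 200 CPM in the MSNP-treated libraries and 31.9, 34.9 and 29.6 CPM in the SNP100-treated libraries, a log2 fold change of 2.62 ± 0.053 (SE, n = 3 against 3, adjusted p = 1.26e-13). Sqstm1, the cargo receptor p62, stood at 1283, 1209 and 1147 CPM in the MSNP-treated libraries and 653, 614 and 654 CPM in the SNP100-treated libraries, a log2 fold change of 0.92 ± 0.045 (SE, n = 3 against 3, adjusted p = 5.92e-10). Optn, another cargo receptor, was low in both groups (4.48 against 1.11 CPM, log2 fold change 2.01 ± 0.16), and Plekhm1, which links autophagosomes to late endosomes, was at 400 against 245 CPM. Wipi1 was lower with MSNPs (3.31 against 9.17 CPM, log2 fold change -1.46 ± 0.11).

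Of 15 ESCRT subunits and galectins, which seal and mark damaged membranes, 12 were called higher and 1, Pdcd6, lower. Lgals3 (galectin 3) stood at 2070, 2018 and 2015 CPM in the MSNP-treated libraries and 925, 902 and 910 CPM in the SNP100-treated libraries, a log2 fold change of 1.16 ± 0.034 (SE, n = 3 against 3, adjusted p = 4.25e-12). Lgals8 (galectin 8) was at 108 against 56.5 CPM, a log2 fold change of 0.93 ± 0.043, whereas the called ESCRT subunits had log2 fold changes of at most 0.40 (Chmp2b). In the 15-library model 7 of the 15 were called, all higher.

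Of 16 genes of an integrated stress response list, 13 were called higher and 1 lower, with a median log2 fold change of 0.45. In the 15-library model 9 were called higher and 1 lower. The list also holds the upstream kinase genes Eif2ak3 and Eif2ak4, and Ranbp3l, whose part in this response was not tested. Ddit3, which encodes the transcription factor CHOP, stood at 52.6, 48.4 and 51.1 CPM in the MSNP-treated libraries and 14.4, 15.3 and 15.4 CPM in the SNP100-treated libraries, a log2 fold change of 1.75 ± 0.05 (SE, n = 3 against 3, adjusted p = 3.16e-12). Trib3, a pseudokinase that restrains ATF4, stood at 53, 51.9 and 45.4 CPM in the MSNP-treated libraries and 14.4, 14.3 and 14.7 CPM in the SNP100-treated libraries, a log2 fold change of 1.79 ± 0.061 (SE, n = 3 against 3, adjusted p = 1.51e-11). Atf4 itself was at 401 against 274 CPM, a log2 fold change of 0.55 ± 0.037, and Ppp1r15a, which reverses eIF2α phosphorylation, at 60.2 against 25.9 CPM.

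Ranbp3l went the other way and stood at 40, 41.5 and 39.3 CPM in the MSNP-treated libraries and 243, 234 and 237 CPM in the SNP100-treated libraries, a log2 fold change of -2.56 ± 0.04 (SE, n = 3 against 3, adjusted p = 2.14e-14). With HMSNPs, given at the same 200 µg/mL as MSNPs, the means were 5.96 CPM for Ddit3, 3.06 CPM for Trib3 and 160 CPM for Atf4, each below the level of the nontreated cells (9.6, 19.8 and 294 CPM). The mean of Ranbp3l with HMSNPs was 31.5 CPM, close to that with MSNPs, against 242 CPM in nontreated cells. These levels are set side by side without a test.

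Of 19 genes of amino acid transport, serine synthesis and one-carbon metabolism, 16 were called higher and 0 lower (0 at an unadjusted p under 0.05 in edgeR and 0 in DESeq2), with 10 called higher in the 15-library model. Slc7a11, the cystine importer, stood at 211, 214 and 165 CPM in the MSNP-treated libraries and 95.5, 99.8 and 87.1 CPM in the SNP100-treated libraries, a log2 fold change of 1.06 ± 0.08 (SE, n = 3 against 3, adjusted p = 6.95e-08). Slc3a2, its heavy chain, was at 592 against 351 CPM (log2 fold change 0.75 ± 0.04), Mthfd2 at 264 against 170 CPM (0.64 ± 0.04) and Asns, asparagine synthetase, at 248 against 166 CPM (0.58 ± 0.037). Of 20 cytosolic aminoacyl-tRNA synthetases, 14 were called higher, led by Sars1 (652 against 360 CPM, log2 fold change 0.86 ± 0.037), and Qars1 was called lower (-0.25 ± 0.038).

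The composite element that ATF4 binds with C/EBP partners reads TGATGNAA. It was present on either strand in 3 of the 16 promoters of the integrated stress response list (18.8%). The share was 1219 of 27025 in all promoters (4.51%) and 2.85% in those of tested genes. Lists described below held it as well, in 3 of 14 promoters of the BCL2 family (21.4%) and 2 of 14 of inflammasome genes (14.3%). It was thus not particular to the stress response list, and 0 of 24 promoters of autophagy genes held it. Of the 19 amino acid genes above, only 15 (78.9%) had an entry, so that no share is given. The element was present in 5 of those 15. The upstream stretches of Chac1, a glutathione-degrading enzyme at 11.3 against 6.08 CPM, and of Slc7a11 are shown because these genes rose and carry the element (in capitals, in Chac1 as its reverse complement). The printed stretch of Slc7a11 holds another copy in lower case, as the reverse complement.
Chac1 (chr2:119181500-119181567, plus strand): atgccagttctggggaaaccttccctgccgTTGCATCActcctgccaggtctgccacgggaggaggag
Slc7a11 (chr3:50398091-50398158, minus strand): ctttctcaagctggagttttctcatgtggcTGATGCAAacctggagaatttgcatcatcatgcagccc

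Of 22 endoplasmic reticulum chaperones and unfolded protein response genes, 18 were called higher and 0 lower (0 at an unadjusted p under 0.05 in edgeR and 0 in DESeq2), with small differences (median log2 fold change 0.22) and 11 calls in the 15-library model. The exception in size was Ern1, which encodes the stress sensor IRE1α and stood at 60, 63.7 and 56.1 CPM in the MSNP-treated libraries and 22.4, 24.1 and 22.5 CPM in the SNP100-treated libraries, a log2 fold change of 1.38 ± 0.054 (SE, n = 3 against 3, adjusted p = 5.51e-11). Hspa5 (BiP) was at 1859 against 1452 CPM, a log2 fold change of 0.36 ± 0.036. Among 15 cytosolic heat shock chaperones, 7 were called higher and 2 lower (2 and 1 in the 15-library model), and the inducible Hspa1b fell from 19 to 7.28 CPM, with near-identical Hspa1a sharing its sequence.

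Iron and metal handling genes were largely higher with MSNPs. Of 17 genes of heme and iron handling, 14 were called higher and 1 lower, with a median log2 fold change of 0.56. Slc40a1, the iron exporter ferroportin, stood at 12, 12.4 and 10.4 CPM in the MSNP-treated libraries and 2.13, 2.49 and 1.7 CPM in the SNP100-treated libraries, a log2 fold change of 2.46 ± 0.12 (SE, n = 3 against 3, adjusted p = 8.61e-10). Slc11a2, the iron importer DMT1, stood at 194, 191 and 187 CPM in the MSNP-treated libraries and 72, 66.6 and 71.2 CPM in the SNP100-treated libraries, a log2 fold change of 1.45 ± 0.041 (SE, n = 3 against 3, adjusted p = 2.46e-12). The ferritin chains Ftl1 and Fth1, which held some of the highest CPM of the libraries, were at 9544 against 6258 CPM and 8599 against 5828 CPM, and both have processed copies in the genome that can share reads.

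Hmox1, heme oxygenase 1, stood at 957, 943 and 888 CPM in the MSNP-treated libraries and 548, 605 and 455 CPM in the SNP100-treated libraries, a log2 fold change of 0.79 ± 0.075 (SE, n = 3 against 3, adjusted p = 7.88e-07). The 3 nontreated libraries stood at 1531, 1694 and 1243 CPM, so that the means with both particles lay below the mean of the controls, 1489 CPM. Ncoa4, the ferritin receptor for autophagy, was at 113 against 54.6 CPM (log2 fold change 1.05 ± 0.042), and the mitochondrial iron importer Slc25a37 was lower (-0.60 ± 0.11). Of 19 NRF2 targets, 9 were called higher and 2 lower (5 and 0 in the 15-library model), among them Srxn1 at 195 against 123 CPM, whereas Nqo1 (0.744 against 0.78 CPM) was not called. Of 20 metallothioneins and zinc transporters, 14 were called higher and 2 lower (7 and 2 in the 15-library model), led by the importer Slc39a6 at 264 against 127 CPM (log2 fold change 1.05 ± 0.041).

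Early response transcription factors were split. Of 31 AP-1 and immediate early factors, 9 were called higher and 15 lower, with a median log2 fold change of -0.25. Atf3, which the study names, stood at 179, 168 and 171 CPM in the MSNP-treated libraries and 44.7, 47.6 and 44.7 CPM in the SNP100-treated libraries, a log2 fold change of 1.92 ± 0.043 (SE, n = 3 against 3, adjusted p = 3.31e-13). Jun, the partner of Fos in AP-1, stood at 154, 158 and 161 CPM in the MSNP-treated libraries and 79.3, 75.3 and 79.7 CPM in the SNP100-treated libraries, a log2 fold change of 1.02 ± 0.039 (SE, n = 3 against 3, adjusted p = 4.94e-11). Fosl2, in contrast, stood at 61.1, 61.1 and 60.8 CPM in the MSNP-treated libraries and 151, 147 and 168 CPM in the SNP100-treated libraries, a log2 fold change of -1.35 ± 0.048 (SE, n = 3 against 3, adjusted p = 2.28e-11). Jun, like Atf3, was thus higher with MSNPs, whereas Fos, Fosl2, Fosb, Junb and Jund were lower. Fitted log2 fold changes over the whole list ran from -3.03 to 2.26.

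Egr3, a zinc finger factor of the immediate early class, was at 0.944 against 4.41 CPM (log2 fold change -2.21 ± 0.20), Nr4a1 at 1.19 against 3.53 CPM (-1.57 ± 0.15) and Ier2 at 17.6 against 34 CPM (-0.94 ± 0.075). Klf6 (161 against 95.1 CPM), Id2 (134 against 75.7 CPM) and Mafk (56.6 against 31.9 CPM) were higher. Of 14 MAPK feedback inhibitors, 6 were called higher and 3 lower. Dusp6, the phosphatase specific for ERK, fell from 19.8 to 8.02 CPM (log2 fold change -1.3 ± 0.084), whereas Dusp4, a nuclear phosphatase, rose from 70.3 to 143 CPM and Dusp8 from 0.143 to 1.28 CPM.

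Of 23 NF-κB subunits and feedback inhibitors, 3 were called higher and 10 lower. Nfkbiz, an atypical inhibitor protein, stood at 5.51, 6.36 and 8.14 CPM in the MSNP-treated libraries and 15.9, 20.4 and 17.9 CPM in the SNP100-treated libraries, a log2 fold change of -1.43 ± 0.12 (SE, n = 3 against 3, adjusted p = 1.95e-07). Nfkbia, the inhibitor IκBα, stood at 61.1, 60.3 and 63.2 CPM in the MSNP-treated libraries and 93, 89 and 110 CPM in the SNP100-treated libraries, a log2 fold change of -0.66 ± 0.064 (SE, n = 3 against 3, adjusted p = 1.05e-06). Tnfaip3, the deubiquitinase A20, was higher at 19.1 against 10.7 CPM (log2 fold change 0.84 ± 0.061). The subunits Rela (0.07 ± 0.047), Relb (-0.04 ± 0.061) and Nfkb2 (0.01 ± 0.051) were not called.

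**Figure D4:**
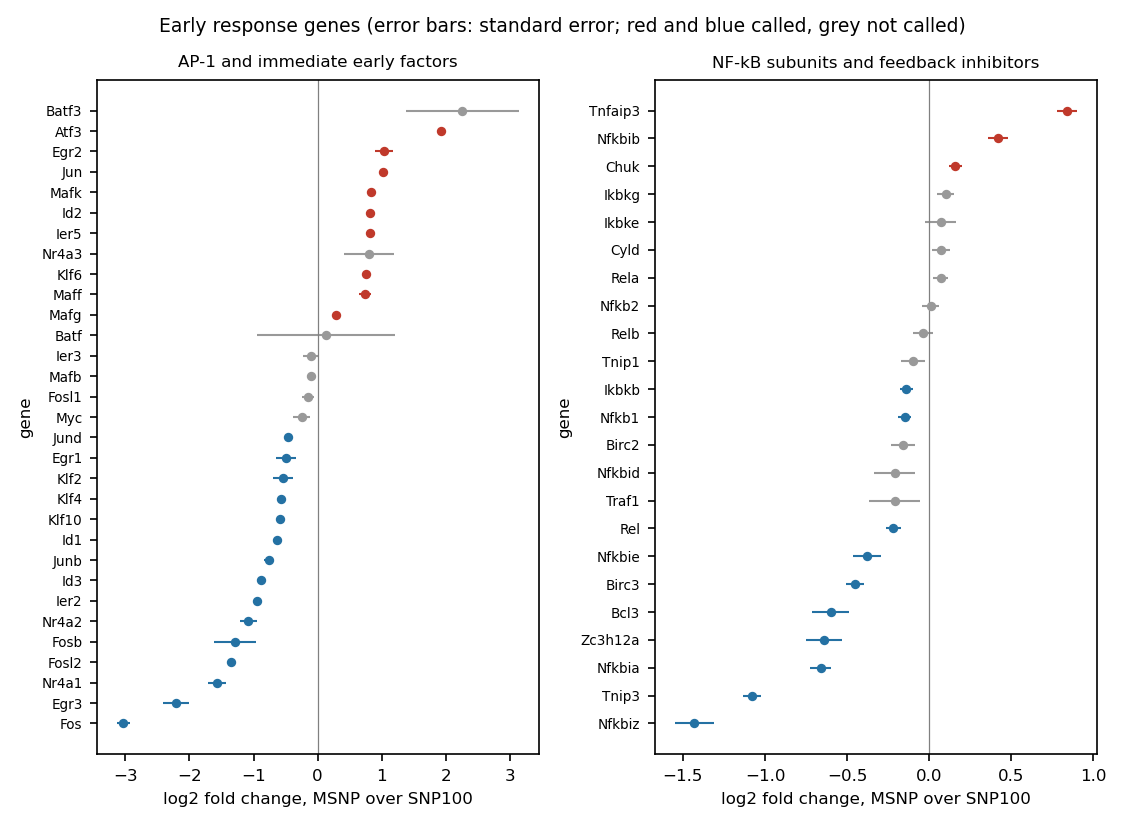
Fitted log2 fold change of MSNP over SNP100 (x axis) for 31 AP-1 and immediate early factors and 23 NF-κB subunits and feedback inhibitors (y axis), with bars for 1 SE from the fit on 3 against 3 libraries. Both panels hold points on either side of 0, with 15 and 10 called lower (blue) and 9 and 3 called higher (red), and the wide bars belong to genes of few counts.

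Cytokine and chemokine genes differed one by one. Of 14 macrophage cytokine genes, 4 were called higher (28.6%) and 2 lower (14.3%), against 21.9% and 19% of all tested genes. Of the protein-coding genes 3624 of 12395 were called higher and 2728 lower, so that these counts do not set the list apart. Csf1, the macrophage growth factor, stood at 5.06, 4.19 and 3.5 CPM in the MSNP-treated libraries and 0.949, 0.455 and 0.879 CPM in the SNP100-treated libraries, a log2 fold change of 2.47 ± 0.22 (SE, n = 3 against 3, adjusted p = 3.94e-07). Il1rn, the antagonist of the interleukin 1 receptor, stood at 288, 276 and 269 CPM in the MSNP-treated libraries and 53.4, 51.2 and 53.7 CPM in the SNP100-treated libraries, a log2 fold change of 2.39 ± 0.041 (SE, n = 3 against 3, adjusted p = 3.42e-14). Tnf, a central cytokine of macrophage activation, stood at 52.3, 50 and 58.6 CPM in the MSNP-treated libraries and 45.3, 45.9 and 66 CPM in the SNP100-treated libraries, with a log2 fold change of 0.04 ± 0.11 that was not called (adjusted p = 0.836). The groups overlapped for Tnf. They did not overlap for Csf1 and Il1rn, with MSNPs higher, as was the case for 25.9% of all tested genes.

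Osm (oncostatin M) was higher (13.8 against 6.13 CPM) and Il18 lower (3.59 against 6.62 CPM), and Il1b had at most 3 counts in any MSNP-treated library, at 0.0979, 0.0805 and 0.0294 CPM with MSNPs and 0.154, 0.161 and 0.934 CPM with SNP100. Of 12 chemokine genes, 5 were called higher and 5 lower. Ccl3 stood at 295, 279 and 287 CPM in the MSNP-treated libraries and 78.9, 80.8 and 110 CPM in the SNP100-treated libraries, a log2 fold change of 1.68 ± 0.092 (SE, n = 3 against 3, adjusted p = 2.06e-09), and its neighbor Ccl4 at 61.2 against 16.7 CPM (1.88 ± 0.089). Both attract monocytes and lymphocytes. Cxcl16, the ligand of CXCR6, went down and stood at 70.7, 73.3 and 68.1 CPM in the MSNP-treated libraries and 153, 145 and 151 CPM in the SNP100-treated libraries, a log2 fold change of -1.08 ± 0.041 (SE, n = 3 against 3, adjusted p = 4.34e-11). Cxcl10, an interferon-inducible chemokine, was low throughout (0.443 against 1.8 CPM).

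Interferon-stimulated genes were mostly at low level. Of 32 tested, 4 were called higher and 13 lower, with a median log2 fold change of -0.24. Ifit1 was at 1 against 2.18 CPM (log2 fold change -1.14 ± 0.29, adjusted p = 0.00508), Isg15 at 0.713 against 1.72 CPM (-1.26 ± 0.23) and Rtp4 at 0.89 against 2.12 CPM (-1.26 ± 0.18). Usp18, which removes ISG15 and restrains interferon signaling, was the clearest increase and stood at 35, 35.1 and 34.3 CPM in the MSNP-treated libraries and 14.7, 13.6 and 14.2 CPM in the SNP100-treated libraries, a log2 fold change of 1.3 ± 0.05 (SE, n = 3 against 3, adjusted p = 5.32e-11). Among 14 genes of MHC class I presentation, 5 were called higher and 6 lower, with log2 fold changes from -0.44 (Psmb9) to 0.35 (Psmb10), and 1 was called in the 15-library model.

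Pattern recognition receptors also moved in both directions. Of 22 Toll-like receptors and adaptors, 10 were called higher and 6 lower. Tlr2, which senses bacterial lipopeptides, stood at 144, 144 and 147 CPM in the MSNP-treated libraries and 378, 373 and 398 CPM in the SNP100-treated libraries, a log2 fold change of -1.4 ± 0.037 (SE, n = 3 against 3, adjusted p = 1.7e-12). Cd14, the co-receptor for lipopolysaccharide, stood at 557, 561 and 566 CPM in the MSNP-treated libraries and 823, 801 and 921 CPM in the SNP100-treated libraries, a log2 fold change of -0.60 ± 0.047 (SE, n = 3 against 3, adjusted p = 1.17e-07). The adaptor Ticam1 (TRIF) was higher (41.1 against 19.8 CPM, 1.05 ± 0.053), as was Tollip (174 against 85.5 CPM, 1.02 ± 0.043). Of 15 inflammasome genes, 7 were called higher and 4 lower (4 and 2 in the 15-library model), with Nlrp3, the sensor of lysosomal damage and potassium loss, at 66 against 99 CPM (log2 fold change -0.58 ± 0.05) and the channel Panx1 at 47.6 against 22.6 CPM (1.07 ± 0.055).

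Of 12 genes of a list of scavenger receptors and TAM receptors, which also holds the ligand Gas6, 5 were called higher and 5 lower (2 and 3 in the 15-library model). Gas6, the bridging ligand of the TAM receptors, stood at 278, 283 and 272 CPM in the MSNP-treated libraries and 74, 78.2 and 70.1 CPM in the SNP100-treated libraries, a log2 fold change of 1.91 ± 0.043 (SE, n = 3 against 3, adjusted p = 4.27e-13). Msr1, a receptor known to bind silica, was at 694 against 620 CPM with a log2 fold change of 0.16 ± 0.035 that was not called in the 15-library model. Olr1, the receptor for oxidized low density lipoprotein, was lower (2.27 against 9.48 CPM, -2.05 ± 0.10). Of 12 Fc and complement receptor genes, 6 were called higher and 4 lower, among them the integrin Itgax at 43.7 against 14.4 CPM (1.6 ± 0.048) and the anaphylatoxin receptor C5ar1 at 48.2 against 88.8 CPM (-0.88 ± 0.047).

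Of 12 C-type lectin receptor genes, 6 were called higher and 5 lower, with Clec4e (Mincle) at 572 against 215 CPM (log2 fold change 1.41 ± 0.042) and Clec5a at 266 against 389 CPM (-0.55 ± 0.037). Of 18 costimulatory and inhibitory receptor genes, 9 were called higher and 3 lower. Cd274, which encodes PD-L1, stood at 16, 16.9 and 16.6 CPM in the MSNP-treated libraries and 5.85, 6.53 and 5.6 CPM in the SNP100-treated libraries, a log2 fold change of 1.46 ± 0.075 (SE, n = 3 against 3, adjusted p = 1.04e-09). Trem1, an amplifier of inflammatory signaling, stood at 5.19, 4.64 and 4.88 CPM in the MSNP-treated libraries and 25, 25.4 and 26.1 CPM in the SNP100-treated libraries, a log2 fold change of -2.38 ± 0.066 (SE, n = 3 against 3, adjusted p = 2.3e-12). Cd80, a costimulatory ligand the study names, was at 4.71 against 3.86 CPM and was not called (log2 fold change 0.28 ± 0.15, adjusted p = 0.149).

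Of the 17 endocytosis and caveolae genes, 10 were called higher and 4 lower, and 3 and 3 in the 15-library model. Rab7, the GTPase of late endosomes, was at 547 against 416 CPM (log2 fold change 0.40 ± 0.039) and Picalm, a clathrin adaptor, at 275 against 384 CPM (-0.48 ± 0.038). Of 11 genes of the phagocyte oxidase and superoxide defence, 4 were called higher and 4 lower (3 and 2 in the 15-library model). Hvcn1, the proton channel that balances charge during the oxidative burst, stood at 29.2, 28.4 and 26.1 CPM in the MSNP-treated libraries and 6.44, 5.97 and 6.1 CPM in the SNP100-treated libraries, a log2 fold change of 2.18 ± 0.067 (SE, n = 3 against 3, adjusted p = 6.03e-12). The oxidase subunit Ncf1 was lower by 0.49 on the log2 scale.

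Genes of the osteoclast program, which this cell line can enter, were split. Of 12 tested, 5 were called higher and 4 lower. Gpnmb, a glycoprotein of lysosomes and melanosomes (chr6:49013426-49047863), stood at 4620, 4553 and 4372 CPM in the MSNP-treated libraries and 916, 940 and 822 CPM in the SNP100-treated libraries, a log2 fold change of 2.34 ± 0.05 (SE, n = 3 against 3, adjusted p = 1.95e-13), and was among the 10 called genes of highest mean CPM. Itgb3, the β3 integrin chain, stood at 32.6, 29.5 and 27 CPM in the MSNP-treated libraries and 3.1, 3.5 and 3.41 CPM in the SNP100-treated libraries, a log2 fold change of 3.15 ± 0.087 (SE, n = 3 against 3, adjusted p = 2.22e-12). Nfatc1, the master factor of osteoclasts, stood at 85.9, 91.4 and 89.6 CPM in the MSNP-treated libraries and 431, 409 and 486 CPM in the SNP100-treated libraries, a log2 fold change of -2.31 ± 0.057 (SE, n = 3 against 3, adjusted p = 7.72e-13). Tnfrsf11a, which encodes the receptor RANK, stood at 53.2, 50.9 and 55.3 CPM in the MSNP-treated libraries and 111, 108 and 115 CPM in the SNP100-treated libraries, a log2 fold change of -1.07 ± 0.043 (SE, n = 3 against 3, adjusted p = 7.1e-11).

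The members of that list called higher were Gpnmb, Itgb3, Atp6v0d2, Src and Ctsk, and those called lower were Nfatc1, Tnfrsf11a, Ocstamp and Acp5. Of 16 matrix proteases and inhibitors, 6 were called higher and 5 lower (4 and 2 in the 15-library model). Mmp12, macrophage elastase, stood at 8.12, 8.51 and 7.14 CPM in the MSNP-treated libraries and 0.616, 0.669 and 0.44 CPM in the SNP100-treated libraries, a log2 fold change of 3.77 ± 0.16 (SE, n = 3 against 3, adjusted p = 1.03e-10). Plau, the urokinase-type plasminogen activator, was higher at 940 against 527 CPM (0.84 ± 0.036).

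Lipid genes were called in both directions. Of 30 genes of cholesterol and fatty acid synthesis, 22 were called higher and 2 lower, with a median log2 fold change of 0.34. In the 15-library model 15 were called higher and 2 lower. Insig1, which retains the SREBP factors in the endoplasmic reticulum, stood at 124, 116 and 113 CPM in the MSNP-treated libraries and 60.1, 66.3 and 58.9 CPM in the SNP100-treated libraries, a log2 fold change of 0.93 ± 0.051 (SE, n = 3 against 3, adjusted p = 1.98e-09). Scd2, a fatty acid desaturase, was lower (-0.28 ± 0.042). With HMSNPs the mean of Insig1 was 87.3 CPM and in nontreated cells 56.8 CPM.

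Of 20 genes of lipid storage and cholesterol efflux, 9 were called higher and 5 lower. Plin2, which coats lipid droplets, stood at 367, 351 and 344 CPM in the MSNP-treated libraries and 130, 131 and 123 CPM in the SNP100-treated libraries, a log2 fold change of 1.47 ± 0.04 (SE, n = 3 against 3, adjusted p = 2.13e-12). Nceh1, which releases cholesterol from its stored esters, stood at 524, 506 and 477 CPM in the MSNP-treated libraries and 148, 144 and 127 CPM in the SNP100-treated libraries, a log2 fold change of 1.85 ± 0.055 (SE, n = 3 against 3, adjusted p = 4.16e-12). Fabp4, a fatty acid carrier, was at 9.32 against 0.826 CPM (3.49 ± 0.12). The LXR targets Mylip (3.13 against 12.7 CPM, -2.03 ± 0.091), Abca1 (1.28 against 2.55 CPM, -0.99 ± 0.16) and Abcg1 (26.9 against 43.2 CPM, -0.69 ± 0.047) were lower with MSNPs, whereas the receptors Nr1h3 and Nr1h2 were not called.

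Of 15 genes of prostaglandin and leukotriene synthesis and sensing, 3 were called higher and 8 lower, with a median log2 fold change of -0.33. Ptgs2 (COX-2) stood at 11.1, 10.3 and 10.2 CPM in the MSNP-treated libraries and 22.3, 22.3 and 30.6 CPM in the SNP100-treated libraries, a log2 fold change of -1.25 ± 0.11 (SE, n = 3 against 3, adjusted p = 3.24e-07). Hpgd, which inactivates prostaglandins, stood at 2.77, 2.82 and 2.47 CPM in the MSNP-treated libraries and 12.6, 12.7 and 12.2 CPM in the SNP100-treated libraries, a log2 fold change of -2.22 ± 0.09 (SE, n = 3 against 3, adjusted p = 8.41e-11). Ptgs1, the constitutive enzyme, was lower as well (10.2 against 21.9 CPM), and Hpgds, the hematopoietic prostaglandin D synthase, was higher (299 against 197 CPM). The levels of Ptgs2 in nontreated and HMSNP-treated cells were 42.1 and 49.5 CPM.

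Of 26 genes of glycolysis and the hypoxia response, 16 were called higher and 2 lower, with a median log2 fold change of 0.23. In the 15-library model 12 were called higher and 1 lower. Ndrg1, which is induced by hypoxia and metal chelation, stood at 275, 263 and 262 CPM in the MSNP-treated libraries and 63.1, 60 and 60.3 CPM in the SNP100-treated libraries, a log2 fold change of 2.12 ± 0.04 (SE, n = 3 against 3, adjusted p = 6.52e-14). Hk3, a hexokinase of myeloid cells, stood at 312, 312 and 319 CPM in the MSNP-treated libraries and 82.8, 87.7 and 82 CPM in the SNP100-treated libraries, a log2 fold change of 1.9 ± 0.039 (SE, n = 3 against 3, adjusted p = 1.26e-13). The glucose transporter Slc2a1 was at 410 against 255 CPM (0.68 ± 0.041), whereas the enzymes Gapdh (0.03 ± 0.046), Pkm (0.05 ± 0.035) and Eno1 (0.10 ± 0.039) were not called.

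Genes of cell death and growth arrest differed singly. Of 21 p53 targets, 8 were called higher and 4 lower (4 and 3 in the 15-library model). Plk2, a kinase induced by stress, stood at 50.3, 49.5 and 47.8 CPM in the MSNP-treated libraries and 6.31, 6.34 and 6.26 CPM in the SNP100-treated libraries, a log2 fold change of 2.96 ± 0.053 (SE, n = 3 against 3, adjusted p = 4.23e-14). Gadd45a was higher (6.41 against 2.53 CPM, 1.34 ± 0.15), Fas, the death receptor, was lower (1.07 against 2.88 CPM, -1.43 ± 0.16), and Cdkn1a (p21) was slightly lower (226 against 263 CPM, -0.22 ± 0.043). Of 15 BCL2 family genes, 8 were called higher and 3 lower (4 and 2 in the 15-library model). Besides the fall of Bmf, the antiapoptotic Bcl2l1 was at 176 against 89.4 CPM (0.98 ± 0.043) and Mcl1 at 720 against 484 CPM (0.57 ± 0.036).

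Most ribosomal protein genes were slightly lower with MSNPs in the 6-library fit. Of 76 cytosolic ribosomal protein genes, 72 were called lower and the fitted values of all 76 were below 0, with a median log2 fold change of -0.25 and a range from -0.47 to -0.07. In edgeR's 15-library model 0 of the 76 were called and the unadjusted p lay under 0.05 for 8, while DESeq2 on the 6 libraries called 72, and 70 were called lower in a model of 14 libraries without Control replicate 3, where ribosomal protein genes took 6.49% of the counts. Of 32 nuclear genes for complex I, 3 were called higher and 18 lower (in edgeR's 15-library model 0, with the unadjusted p under 0.05 for 0, and in DESeq2 on the 6 libraries 3 and 17), with a median of -0.14. Short transcripts in general were lower, since the tenth of genes with the shortest transcripts had a median log2 fold change of -0.10, and with an offset for transcript length 68 ribosomal protein genes and 16 complex I genes were called lower.

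Of 13 genes encoded in mitochondrial DNA, 11 were called lower and the fitted values of all 13 were below 0, with a median log2 fold change of -0.56. The gene of highest CPM, mt-Co1, stood at 3006, 3580 and 4457 CPM in the MSNP-treated libraries and 4506, 6898 and 6786 CPM in the SNP100-treated libraries, a log2 fold change of -0.72 ± 0.14 (SE, n = 3 against 3, adjusted p = 0.000913). The mean of mt-Co1 in nontreated cells was 3445 CPM, close to that with MSNPs. In the 15-library model 2 of the 13 were called, 4 without Control replicate 3 in the spread, and DESeq2 called 8.

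Of 20 genes of mitosis, 3 were called higher and 13 lower, and of 37 genes of DNA replication 6 and 16, all within 0.42 of 0 on the log2 scale. The replication clamp Pcna was at 542 against 602 CPM (-0.15 ± 0.035), and Cenpf at 122 against 163 CPM (-0.42 ± 0.088). The 15-library model called 0 higher and 4 lower of the mitosis genes and 2 and 5 of the replication genes.

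**Figure D5:**
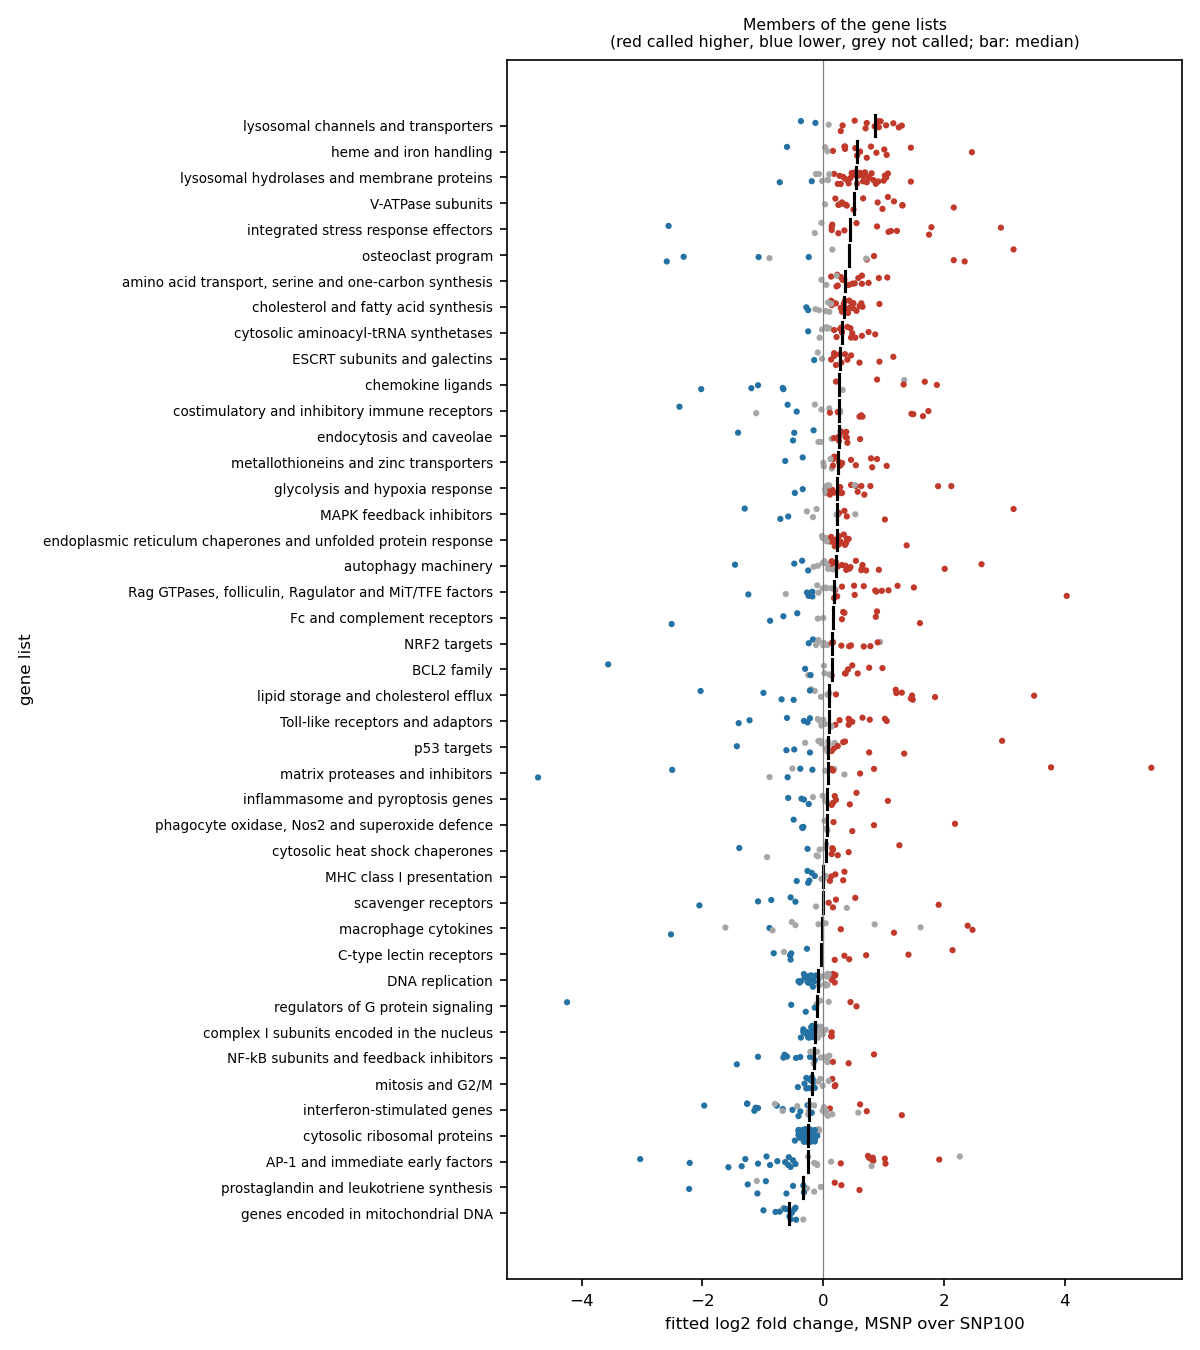
Fitted log2 fold change of MSNP over SNP100 (x axis) for the tested members of each gene list (y axis, ordered by the list median), with 1 point per gene, red when called higher, blue when called lower and grey when not called, and a black bar at the median. The lysosomal lists, with medians of 0.85, 0.54 and 0.50, are among the top 4 lists, and the genes encoded in mitochondrial DNA at the bottom with -0.56, and the 2 points beyond 4.5 in the protease list, Mmp13 and Adam19, come from genes with 0 counts in one group.

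Of the 10 called genes of highest mean CPM, those not named above differed little. Lyz2, lysozyme, was at 9223 against 11194 CPM (log2 fold change -0.28 ± 0.038), Spp1, osteopontin, at 9092 against 10731 CPM (-0.24 ± 0.042), Actb, β-actin, at 4742 against 6274 CPM (-0.40 ± 0.047) and Cst3, cystatin C, at 2869 against 3336 CPM (-0.22 ± 0.035). Lyz1, a near-identical paralog of Lyz2 that can share its reads, was at 3702 against 4054 CPM and lost its call under several alternatives, among them without MSNP replicate 2 or 3 and without SNP100 replicate 1. Csf1r, the receptor for the growth factor Csf1, stood at 1768, 1775 and 1777 CPM in the MSNP-treated libraries and 2699, 2564 and 2751 CPM in the SNP100-treated libraries, a log2 fold change of -0.59 ± 0.036 (SE, n = 3 against 3, adjusted p = 7.79e-09).

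Of the other genes that the study names in its text, Pmp22, a membrane protein of peripheral myelin, stood at 295, 288 and 284 CPM in the MSNP-treated libraries and 58.3, 60.2 and 59.8 CPM in the SNP100-treated libraries, a log2 fold change of 2.28 ± 0.037 (SE, n = 3 against 3, adjusted p = 2.14e-14). Pald1, a phosphatase-like protein, stood at 21.5, 21.5 and 21.4 CPM in the MSNP-treated libraries and 82.3, 78.4 and 75.2 CPM in the SNP100-treated libraries, a log2 fold change of -1.87 ± 0.046 (SE, n = 3 against 3, adjusted p = 7.65e-13). Pmp22 had a mean of 35.4 CPM in nontreated and 63.8 CPM in HMSNP-treated cells, and Pald1 one of 107 and 69.3 CPM. Il6, Il12a, Il12b, Ifng, Il4 and Il5 had fewer than 10 counts over the 6 libraries and were not tested.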

How the data were processed

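RNA from RAW 264.7 cells was sequenced in 15 libraries, of which 3 MSNP-treated and 3 SNP100-treated ones were compared. The authors prepared directional poly(A) libraries, mapped read pairs to GRCm39 and deposited raw counts per gene, without normalization, and the submitters' processing notes name cutadapt 1.16, STAR 2.7.9a and featureCounts 1.6.3. The annotation and the strand setting of the counting are not given in the sources used here. Of 57186 listed genes, 32797 had 0 counts in all 6 libraries, and 17462 with at least 10 counts summed over the 6 were tested. Symbols and positions came from GENCODE vM39 on GRCm39, which lacks 556 of the identifiers. These held at most 0.0259% of the counts of any of the 6 libraries and stayed in the tests.

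The counts were tested with edgeR 4.0.16 in R 4.3.3 (TMM normalization, quasi-likelihood test, Benjamini-Hochberg adjustment over all tested genes, threshold 0.05), without a term for the replicate number. Standard errors were derived from each fitted fold change and its F value. CPM were scaled by TMM factors against one reference library for all 15 libraries. The steps were checked on simulated counts. The members and gene lists were chosen with earlier results of these data known. No test was made over a list, so that its counts are read against the share of all genes called. That share is smaller than the share among protein-coding genes.

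Genes named are the 12 largest increases and 12 largest decreases with a mean of at least 1 CPM in the higher group and groups that do not overlap, up to 5 members of each list by smallest p or by role, the genes the study names, and the 10 called genes of highest mean CPM. Further list members and Csf1r, Fdft1 and other genes beside them were named after their values were seen. A few list members that the rule names are not reported here. Where all libraries of a group had at most 3 counts, no fold is given against that group. Promoter sequences came from RefSeq (GRCm38.p6), and shares are given only for lists with entries for at least 80% of their genes. Alternatives were RLE size factors, DESeq2 1.42.0, other filters on low counts, models of 15 or 14 libraries, a length offset, the replicate number as a block and leaving out each library. The authors' cytokine proteins were not used here.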

Additional observations from a re-analysis of the deposited data

How the results depend on the processing

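No single gene examined changed sign past the threshold under any alternative run, whereas the balance of calls turned with the length offset, to 3575 higher and 3606 lower. The number of genes called fell most when the spread was estimated from all 15 libraries, to 3549 genes, 2056 higher and 1493 lower with MSNPs, of which 3530 were also called in the 6-library fit. In a model of 14 libraries without Control replicate 3, 6483 genes were called. Leaving out each of the 6 libraries gave from 6070 to 7011 genes called, from 3349 to 3759 higher and from 2700 to 3252 lower, and from 1038 to 1215 at least 2-fold. DESeq2 called 6078 genes (2036 had no adjusted p), 904 of them at least 2-fold, against 907 with filterByExpr, 1263 without a filter, 1209 with RLE size factors and 1191 with the length offset. The labels number replicates 1 to 3 in both groups, and the deviations of same-numbered libraries from their group means correlated at 0.212, -0.000633 and -0.0443, so that the numbers were not taken as pairs. Of the MSNP-treated libraries, only replicate 1 correlated best with its own number. Pairs of unlike number reached 0.251 (MSNP 3 with SNP100 2) and -0.296 (MSNP 1 with SNP100 2). With the replicate block, 7154 genes were called, 1116 of them at least 2-fold. Of 926 single genes examined, 292 lost their call in the 15-library model and from 17 to 46 when 1 library was left out. Depth limits genes near the floor, where 101 called genes had at most 3 counts in every SNP100-treated library and 129 in every MSNP-treated library.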

Other observations

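Among 9 tested regulators of G protein signaling, 2 were called higher and 4 lower with MSNPs. Besides Rgs16, Rgs3 was lower (8.66 against 12.5 CPM, log2 fold change -0.53), and Rgs2, which acts on Gq, was higher (130 against 95.1 CPM, log2 fold change 0.45). Mrc1, the mannose receptor and a marker of alternatively activated macrophages, was at 1.77 CPM with MSNPs and 0.4 CPM with SNP100, and Cd200r1, an inhibitory receptor, at 72.1 and 25.6 CPM. Nos2, a marker of classical activation, was at 2.72 and 1.53 CPM. Mrc1 and Nos2 were low in both groups, and no list of activation markers was examined. These single levels therefore do not describe a state of activation. Between replicate libraries the mean chi-square per gene was 4.95 to 9.72 with MSNPs and 7.49 to 13.9 with SNP100, where sampling noise alone would give about 1.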
